A study of Homo sapiens with 12 samples.

Results

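The ZNF genes of chromosome 19 were taken as the protein-coding genes whose symbol is ZNF followed by a number and at most 1 letter, and which lie on chromosome 19 of GRCh38. The rule found 247 such genes, set here against 262 protein-coding ZNF genes of other chromosomes, chosen by the same symbol rule, in count files of 67049 gene IDs. RNA was measured by sequencing in HEK293T, a line of human embryonic kidney cells that carries the SV40 large T antigen, grown in culture. Every culture had been transfected transiently with a cationic lipid reagent, 48 h before harvest, with a pIRES2 plasmid that carried SF3B1, a subunit of the U2 snRNP, which recognises the branch point during splicing. The 4 groups of 3 libraries each were cytoplasmic RNA of cells given SF3B1 K700E, a hotspot mutation of blood cancers, nuclear RNA of the K700E cells, cytoplasmic RNA of cells given wild-type (WT) SF3B1, and nuclear RNA of the WT cells. No untransfected or empty-vector group was analysed here, so both constructs share the overexpression of SF3B1. Separate cultures for the 3 libraries of a group are not stated in the labels, and the p-values below measure only how these libraries spread, which may be technical variation. The study's title concerns mRNA export through the binding of SF3B1 to THOC5, part of the THO export complex, and the design sets cytoplasmic against nuclear RNA, K700E against WT, and the fraction ratio with K700E against that with WT.

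Chromosome 19 carries the largest human concentration of C2H2 zinc-finger genes, which arose by repeated tandem duplication and stand side by side in clusters. Each finger is a short fold held by a zinc ion between a pair of cysteines and a pair of histidines, and a run of fingers reads a DNA sequence. Many of the proteins also carry a KRAB box, a short domain that recruits the scaffold TRIM28 (KAP1), which brings in the histone H3K9 methyltransferase SETDB1 and heterochromatin protein HP1. The best known targets of this system are transposable elements, which it keeps silent.

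To show the unit that these genes repeat and how far it differs between them, 1 finger and the start of the next are printed for 7 members that recur in the results. Each is the first stretch of 84 coding bases in the gene's longest complete coding sequence (GENCODE 29, GRCh38, chromosome 19) that encodes a finger followed by the canonical HTGEKP linker, written 5′ to 3′ on the coding strand. Capitals mark the 18 bases of the linker. The first 3 belong to genes whose mRNA was higher in the cytoplasm and the other 4 to genes whose mRNA was higher in the nucleus.
ZNF649: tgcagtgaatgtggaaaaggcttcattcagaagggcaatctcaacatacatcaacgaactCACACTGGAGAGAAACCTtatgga
ZNF543: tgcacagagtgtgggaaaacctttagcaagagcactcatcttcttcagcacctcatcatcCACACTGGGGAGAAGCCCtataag
ZNF460: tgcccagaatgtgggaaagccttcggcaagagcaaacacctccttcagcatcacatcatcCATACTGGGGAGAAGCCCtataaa
ZNF266: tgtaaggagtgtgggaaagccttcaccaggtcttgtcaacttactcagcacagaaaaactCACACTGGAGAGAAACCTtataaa
ZNF224: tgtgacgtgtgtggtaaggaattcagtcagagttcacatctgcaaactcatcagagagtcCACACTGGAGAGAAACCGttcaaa
ZNF700: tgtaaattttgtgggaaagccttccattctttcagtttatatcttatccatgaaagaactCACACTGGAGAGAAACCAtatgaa
ZNF506: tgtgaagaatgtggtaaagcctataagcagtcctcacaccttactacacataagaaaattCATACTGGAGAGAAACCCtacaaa

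Over the 84 positions, identity between pairs of these 7 ran from 46 bases (54.8%, ZNF224 and ZNF700) to 71 bases (84.5%, ZNF543 and ZNF460, neighbours near the end of the long arm). The stretches were chosen to hold the linker, so its presence in all 7 is not a result. Of the 247 members, 212 encoded at least 1 HTGEKP linker, with 1443 linkers in all and 203 different spellings of the 18 bases. The commonest spelling, CATACTGGAGAGAAACCC, stood at 208 of them (14.4%), and it was also the commonest in the ZNF genes of other chromosomes, at 114 of 833 linkers (13.7%).

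A KRAB box pattern was found in the protein of 210 of the 247 members (85.0%), against 110 of the 262 ZNF genes of other chromosomes (42.0%). Members had a median of 13 C2H2 fingers and up to 39, against a median of 9 and up to 34 elsewhere. Their longest annotated transcripts, from which GC content is taken throughout, were poor in GC, with a median of 42.2% against 44.7% elsewhere. Only 25 members had at least 55% GC, and 23 of those 25 lacked the KRAB pattern. The median member shared 2.63% of its 50-base exonic words with another annotated gene, against 0.472% elsewhere, and 23 members shared at least 20%. Exons of 137 members overlapped those of another gene, 78 of them a gene on the opposite strand, and the labels do not say whether counting used the strand. Values of these genes may therefore hold reads of their partners, and the partner is named below where a result turns on such a gene.

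Library totals ran from 13422598 to 18116929 counts in the cytoplasm and from 9086743 to 11200562 in the nucleus. SF3B1 was abundant in all groups, with means of 7904 and 1596 CPM (counts per unit of library size, scaled by TMM) in K700E cytoplasm and nuclei and 9408 and 1573 CPM in WT cytoplasm and nuclei. Gene counts do not separate the K700E from the WT allele. The nuclear RNAs MALAT1, NEAT1 and KCNQ1OT1 were higher in every nuclear library than in every cytoplasmic one, and mitochondrial mRNAs the reverse. LIN28B, NEFM, NEFL and PAX2, which HEK293 cells are known to express, were detected in all 12 libraries, and LHX1 was under 1 CPM in each. The blood markers PTPRC, CD3E, HBB and HBA1 and the fibroblast marker DCN stayed at or below 0.363 CPM. The fibroblast markers COL3A1 and COL1A1 went above this level. COL3A1 had means of 0.821 and 2.21 CPM in K700E cytoplasm and nuclei and 0.566 and 3.07 CPM in WT cytoplasm and nuclei. The part of COL3A1, COL1A1 and ALB in the results was not tested. ALB reached 20.3 CPM and COL1A1 110.9 CPM, both in WT nucleus library 2. That library also stood apart in base composition. The median log2 CPM of members with at least 55% GC, minus that of the other members, was 0.01 in it and between -1.60 and -1.18 in the other 5 nuclear libraries. Differences of named members between K700E and WT within a fraction that it moved by over 1.5 times are also given without it.

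Of the 247 members, 199 had enough counts to be tested, as had 226 of the 262 ZNF genes of other chromosomes and 20394 genes in all. The 48 members left out had at most 59 counts over the 12 libraries, and 44 of them carry the KRAB pattern. ZNF625, ZNF676, ZNF729 and ZNF135 had 0 counts in every library, which allows a level of up to 0.0202 CPM over all libraries (3 counts, counting error only). The untested genes were not spread evenly. The cluster in the pericentromeric region at 19.7 to 24.1 Mb held 17 of them, and ZNF93, a repressor of L1 retrotransposons that lies there, had only 30 counts in all.

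Members were expressed at low levels. The median tested member had 14.2 CPM, or 2.62 CPM per kb of exon, against 29.2 CPM and 5.37 CPM per kb for the tested ZNF genes of other chromosomes and 5.81 CPM per kb for tested protein-coding genes. ZNF146, a protein made almost only of fingers and without a KRAB box, had by far the highest level, 81.3 CPM per kb, and alone gave 8.01% of the summed level of all members. ZNF266 followed at 22.7 CPM per kb, ZNF121 at 21.1, ZNF581 at 18.5, ZNF302 at 14.7 and ZNF317 at 14.5.

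The summed level of the members overlapped between the groups. It was 3997, 4257 and 3910 CPM in the K700E cytoplasm, 4232, 4362 and 4516 CPM in K700E nuclei, 4239, 4233 and 4130 CPM in the WT cytoplasm, and 4500, 3654 and 4481 CPM in WT nuclei. The lowest value was that of WT nucleus library 2, and the 4 groups overlapped. As a plain share of all counts, members took 0.336 to 0.369% in the K700E cytoplasm, 0.459 to 0.557% in K700E nuclei, 0.350 to 0.356% in the WT cytoplasm and 0.457 to 0.543% in WT nuclei, so on that scale the fractions did not overlap. The level compared between fractions therefore depends on the scaling, here TMM. Since each library was made from a fixed mass of RNA, a cytoplasm-to-nucleus ratio below is one of shares and not of molecules per cell, and fewer cells and less RNA per cell cannot be told apart.

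The comparison of cytoplasm with nucleus asked where the mRNA of each member was found. In both constructs the members split almost evenly. With K700E, 52 of the 199 tested members were higher in the cytoplasm (26.1%) and 51 were lower (25.6%), at an adjusted p under 0.05 in edgeR's quasi-likelihood test, against 28.1% higher and 37.9% lower among all 20394 genes tested. With WT, 52 were higher (26.1%) and 46 lower (23.1%), against 27.1% and 40.0% of all genes. The median log2 cytoplasm-to-nucleus ratio of members was 0.07 with K700E and 0.06 with WT, against -0.29 and -0.40 over all genes and 0.19 and 0.13 over protein-coding genes. Quartiles lay at -0.79 and 0.69 with K700E and at -0.61 and 0.73 with WT. The ZNF genes of other chromosomes had 61 higher and 69 lower of 226 with K700E and 63 and 61 with WT, with a median of 0.06 in both.

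The balance moved with the scaling. With library size alone as the scale, 27 members were higher and 72 lower with K700E and 25 and 73 with WT, and the medians turned negative, at -0.35 and -0.43. With upper quartile factors the counts were 28 and 70 with K700E and 30 and 63 with WT. Under those scalings the median of all genes fell too, to -0.71 with K700E and -0.91 with WT for library size alone and to -0.66 and -0.77 for upper quartile factors, so the members' median stayed above that of all genes. It did not when 1 CPM was required in all 12 libraries, where the members had -0.11 with each construct, against 0.0035 with K700E and -0.04 with WT over the 12309 genes left.

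**Figure D1:**
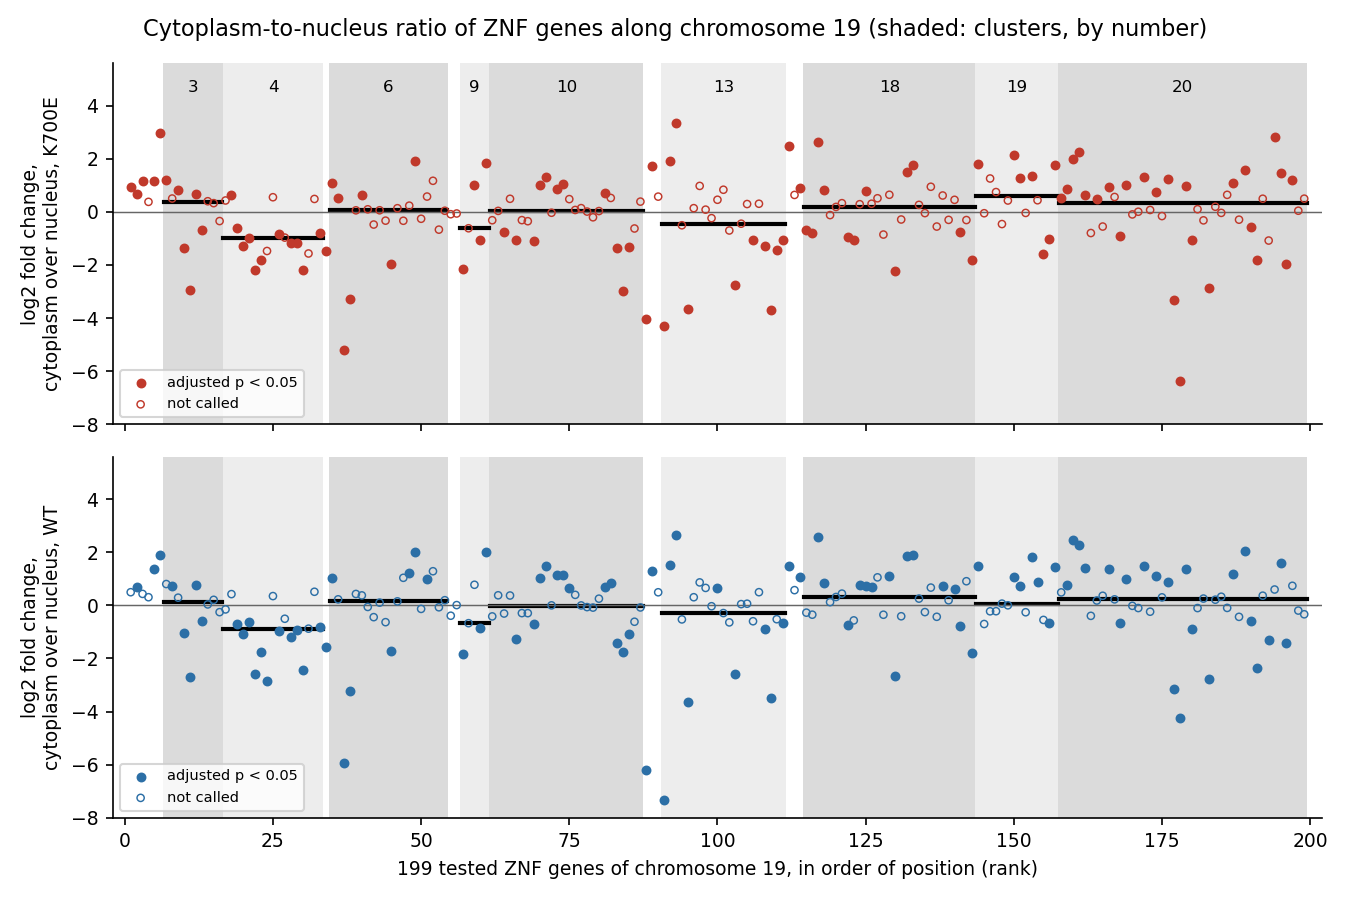
Log2 cytoplasm-to-nucleus ratio (vertical axis) of the 199 tested members in their order along chromosome 19 (horizontal axis, rank), with K700E above and WT below; filled points passed an adjusted p of 0.05, shaded numbered bands are the clusters with at least 5 tested members and black lines are cluster medians. Members on both sides of 0 stand in every band, and the band numbered 4 has the lowest median in both panels, -0.99 with K700E and -0.88 with WT.

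Among the members with a higher cytoplasmic level, ZNF649 (ENSG00000198093, chr19:51889224-51905040, minus strand), a KRAB protein with 10 fingers, had the highest ratio of any KRAB member tested. Its level was 12.3, 13.7 and 11.9 CPM in the K700E cytoplasm and 2.47, 1.81 and 1.83 CPM in K700E nuclei. With WT it was 15.2, 15.1 and 17.4 CPM in the cytoplasm and 5.23, 1.22 and 1.54 CPM in nuclei. Every cytoplasmic library stood above every nuclear one, and WT nucleus library 1 was the highest of the nuclear values. The log2 ratio was 2.62 ± 0.44 (SE, n = 3 per group, edgeR adjusted p = 7.3e-05) with K700E and 2.56 ± 0.43 with WT (edgeR adjusted p = 7.63e-05). Exons of ZNF649 overlap those of ZNF577 and of ZNF649-AS1.

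ZNF543 (ENSG00000178229, chr19:57320509-57330776, plus strand), a KRAB protein with 13 fingers whose exons overlap no other gene, was measured more precisely. It had 45.7, 44.0 and 51.4 CPM in the K700E cytoplasm against 9.24, 10.7 and 9.40 CPM in K700E nuclei, and 50.9, 53.6 and 54.97 CPM in the WT cytoplasm against 14.5, 6.65 and 11.98 CPM in WT nuclei. The fractions were far apart in both constructs, a 4.81-fold excess in the cytoplasm with K700E and 4.80-fold with WT (log2 ratios 2.27 ± 0.26 and 2.26 ± 0.26, edgeR adjusted p = 1.98e-06 and 1.91e-06). Its neighbour ZNF460 (chr19:57280051-57293569, plus strand), whose printed finger is the closest to that of ZNF543, behaved alike. ZNF460 had 13.1, 12.3 and 12.2 CPM in the K700E cytoplasm against 3.11, 3.27 and 3.13 CPM in K700E nuclei, and 15.4, 12.2 and 13.4 CPM in the WT cytoplasm against 3.59, 1.75 and 1.997 CPM in WT nuclei. The fractions did not overlap, and the log2 ratios were 1.98 ± 0.32 with K700E and 2.47 ± 0.32 with WT (edgeR adjusted p = 4.81e-05 and 6.5e-06). Of the 50-base words of ZNF460, 0.203% also occurred in ZNF543.

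The highest ratio of the 199 tested members belonged to ZNF428 (chr19:43607219-43619874, minus strand), a small protein with 1 finger and no KRAB box. The GC content of ZNF428 is 61.3%, and its exons overlap SRRM5 on the opposite strand. It had 24.8, 18.4 and 57.3 CPM in the K700E cytoplasm against 4.70, 2.59 and 2.61 CPM in K700E nuclei, and 29.02, 21.3 and 38.2 CPM in the WT cytoplasm against 3.98, 6.56 and 3.54 CPM in WT nuclei. Library 3 was the highest in each cytoplasmic group, and no nuclear value reached a cytoplasmic one. The cytoplasmic excess was 10.1-fold with K700E (log2 ratio 3.34 ± 0.44, edgeR adjusted p = 6.53e-06) and 6.28-fold with WT (2.65 ± 0.42, 4.56e-05). Other GC-rich genes without a KRAB box that rose in the cytoplasm in both constructs were ZNF358 (2.96 with K700E and 1.88 with WT), ZNF296 (2.48 and 1.46), ZNF581 (2.15 and 1.08) and ZNF628 (1.78 and 1.47). After removal of the GC trend in each library, ZNF358 had 2.84 with K700E and 2.60 with WT, and ZNF296 had 2.45 and 2.16. ZNF581 shares exons with ZNF580 and CCDC106, ZNF296 with GEMIN7-AS1, ZNF628 with AC008735.3, and ZNF358 with AC008878.1 and AC008878.4. Further members higher in the cytoplasm in both constructs were ZNF329 (1.59 and 2.05), which has 12 fingers and no KRAB pattern, and the KRAB genes ZNF792 (1.83 and 2.02), ZNF724 (1.93 and 2.01) and ZNF790 (1.29 and 1.49). ZNF724 shared 43.6% of its words with the overlapping gene AC092329.3, so its level is uncertain, and exons of ZNF790 overlap ZNF790-AS1.

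At the other end, ZNF506 (ENSG00000081665, chr19:19785839-19821751, minus strand), a KRAB protein with 8 fingers, was low in the cytoplasm. It had 1.20, 1.70 and 1.28 CPM in the K700E cytoplasm against 34.2, 59.7 and 62.1 CPM in K700E nuclei, and 1.95, 1.16 and 0.652 CPM in the WT cytoplasm against 33.3, 95.5 and 96.6 CPM in WT nuclei. Library 1 was the lowest nuclear value in both constructs and still stood far above all cytoplasmic ones. The log2 ratios were -5.21 ± 0.46 with K700E and -5.93 ± 0.48 with WT (edgeR adjusted p = 1.57e-07 and 7.37e-08). Its exons, 8414 bases in all, overlap the unnamed transcripts AC011477.4 and AC011477.1, 1 on each strand, whose reads may be among the nuclear ones.

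ZNF266 (chr19:9412461-9435578, minus strand), a KRAB protein with 12 fingers, overlaps no other gene and was among the most abundant members. Its level was 26.3, 35.5 and 24.3 CPM in the K700E cytoplasm against 186, 216 and 265 CPM in K700E nuclei, and 34.0, 33.5 and 29.7 CPM in the WT cytoplasm against 162, 222 and 239 CPM in WT nuclei. The 2 fractions were separated widely in both constructs, at log2 ratios of -2.95 ± 0.24 with K700E and -2.68 ± 0.23 with WT (edgeR adjusted p = 6.56e-08 and 1.41e-07). ZNF224 (chr19:44094339-44109886, plus strand), a KRAB repressor first described on the aldolase A promoter, had 10.2, 14.4 and 8.73 CPM in the K700E cytoplasm against 66.5, 88.7 and 71.7 CPM in K700E nuclei. With WT it had 10.6, 12.8 and 10.2 CPM in the cytoplasm against 63.4, 63.4 and 73.1 CPM in nuclei. The values of each fraction were close together, and the log2 ratios were -2.77 ± 0.24 with K700E and -2.57 ± 0.24 with WT (edgeR adjusted p = 1.36e-07 and 2.46e-07). Exons of ZNF224 overlap AC021092.1 on the opposite strand.

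Further members lower in the cytoplasm in both constructs were ZNF233 (-3.71 with K700E and -3.48 with WT) and ZNF404 (-3.68 and -3.62) from the same cluster as ZNF224, ZNF154 (-3.33 and -3.16), whose promoter is known for methylation in tumours, ZNF540 (-2.99 and -1.75), ZNF814 (-2.87 and -2.79), ZNF302 (-2.17 and -1.84) and ZNF83 (-2.24 and -2.65). ZNF671, at a mean of only 1.45 CPM and named here after its values were seen, had -6.37 and -4.23. All of these except ZNF83 carry the KRAB pattern. The lowest ratio of any tested member with WT, -7.32, belonged to a member without the pattern. It was under the limit of 2 CPM, so the naming rule did not take it. Members this low, ZNF671 included, can pass the count filter through nuclear libraries alone, so low ratios among them are partly built in. ZNF154 and ZNF233 were near 1 CPM or below in the cytoplasm, at means of 0.455 and 1.13 CPM with K700E and 0.594 and 1.36 CPM with WT, so their ratios are less sure than those of ZNF266 and ZNF224. ZNF814 shares exons with ZNF587 and other genes of its locus, ZNF233 with ZNF235, ZNF404 with AC006213.2, and ZNF540 with ZNF571-AS1 and ZFP30. ZNF302 and ZNF83, like ZNF266, overlap no other gene.

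**Figure D2:**
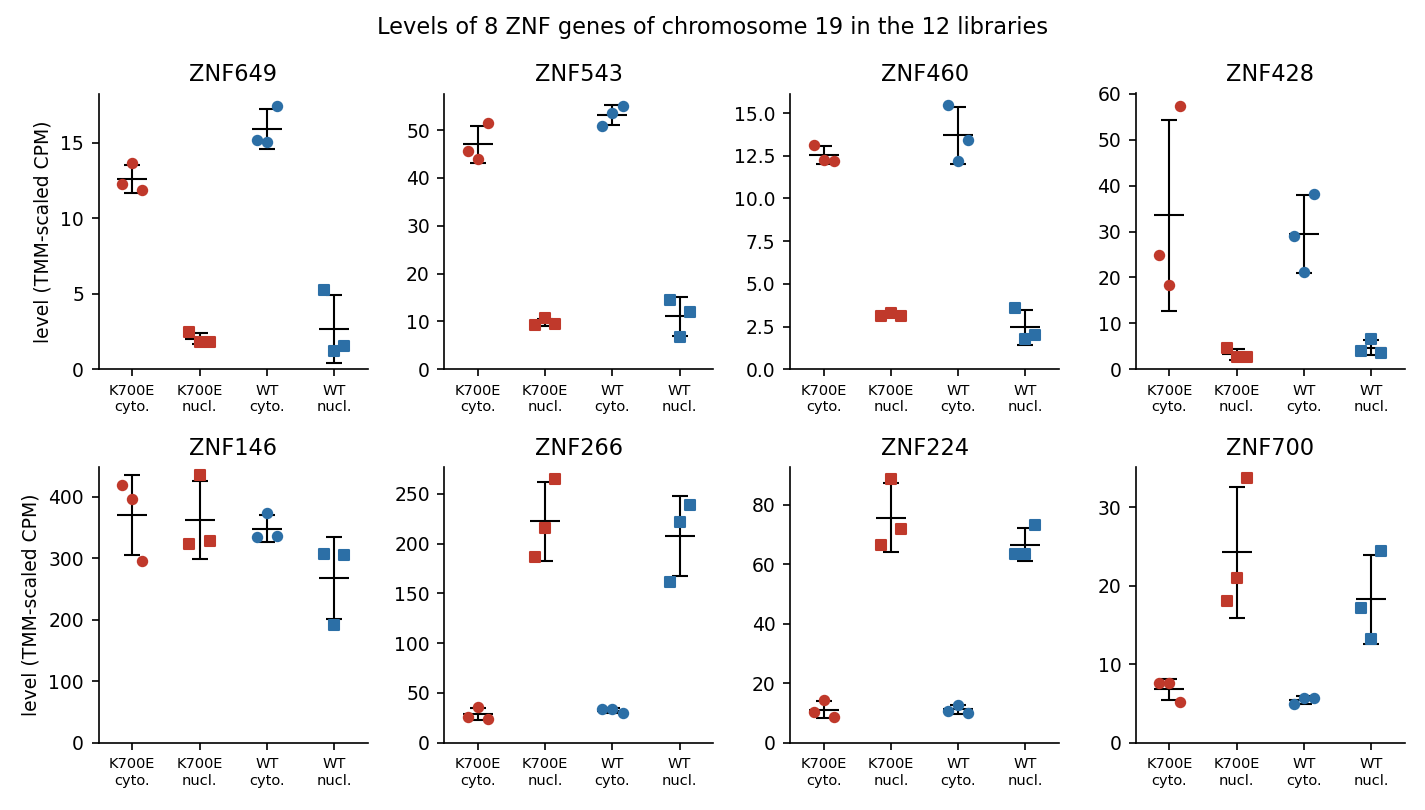
Level in CPM (vertical axis, each panel on its own scale) of 8 members in each of the 12 libraries; points are libraries, bars the mean ± SD of the 3 libraries of a group, circles cytoplasm, squares nucleus, red K700E and blue WT. ZNF649, ZNF543, ZNF460 and ZNF428 stand higher in the cytoplasm, ZNF266, ZNF224 and ZNF700 higher in the nucleus, and the fractions of ZNF146 overlap with K700E.

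The K700E and WT comparisons share no library, and most called members were called in both. Of the 199, 40 were higher in the cytoplasm in both, 44 were lower in both and 0 were called in opposite directions. Another 19 were called with K700E only, 14 with WT only and 82 with neither. The log2 ratios of the members with K700E and with WT had a Pearson r of 0.925 and a Spearman rho of 0.917 across genes, which are not independent replicates. Over the 226 ZNF genes of other chromosomes, 53 were higher in both and 59 lower in both. The share of all 20394 genes called in both was not computed, so the overlap is not shown to be particular to members. In single constructs, 28.1% of all genes were higher and 37.9% lower with K700E, and 27.1% and 40.0% with WT. Genes called in 1 construct only are not thereby shown to differ between constructs. The direct test of that difference is given below and called none of the members.

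Members with the KRAB pattern had medians near 0, with quartiles of -0.91 and 0.63 with K700E and -0.64 and 0.70 with WT. With K700E, 39 of the 166 tested were higher in the cytoplasm and 47 lower, with a median of 0.03, and with WT 40 and 41, with a median of 0.05. The 33 tested members without the pattern had 13 higher and 4 lower with K700E (median 0.49) and 12 and 5 with WT (median 0.37). Among ZNF genes of other chromosomes, the 91 with the pattern had 17 higher and 38 lower with K700E (median -0.43) and 16 and 34 with WT (median -0.34), and the 135 without it had 44 and 31 (0.24) and 47 and 27 (0.26). In both places the genes without the KRAB pattern thus had the higher median, and these medians are a description with no test. The split is entangled with base composition on chromosome 19, where 21 of the 33 members without the pattern had at least 55% GC. The other 12 had 4 higher and 3 lower with K700E (median 0.13) and 5 and 3 with WT (median 0.37). After removal of the GC trend in each library, the medians were 0.01 with the pattern and 0.66 without it for K700E, and -0.03 and 0.49 for WT.

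**Figure D3:**
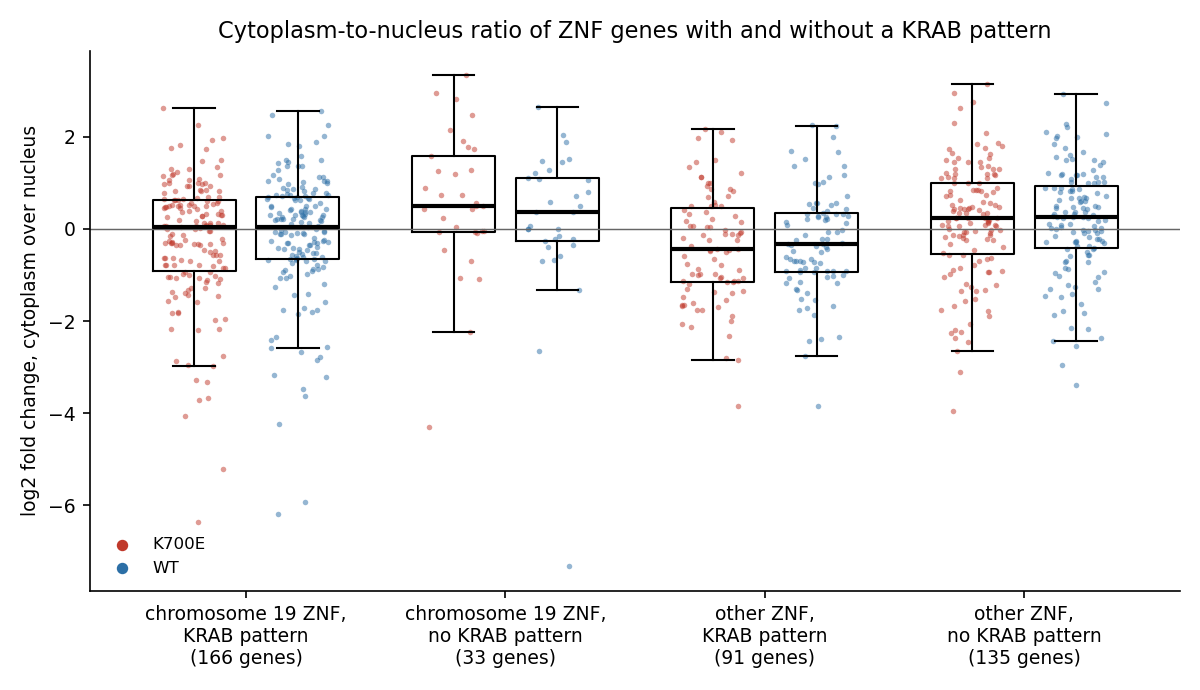
Log2 cytoplasm-to-nucleus ratio (vertical axis) of tested ZNF genes of chromosome 19 and of other chromosomes, split by the KRAB pattern, with K700E and with WT; points are genes, boxes the quartiles with the median line. Medians of genes without the pattern (0.49 and 0.37 on chromosome 19) lie above those of genes with it (0.03 and 0.05).

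Relations of the ratio with other features of the members are given as a description. Across the 199 genes, Spearman's rho was largest in size for GC content with K700E, at 0.30, and it was 0.17 with WT. With the length of the gene rho was -0.27 with K700E and -0.18 with WT, with exonic length -0.25 and -0.18, and with the number of exons of the longest coding transcript -0.18 and -0.16. For the number of fingers rho was -0.19 and -0.12, and for the length of the 3′ untranslated region -0.05 and 0.00. Subsets with little and with much shared sequence were also split to both sides. The 88 members whose exons overlap no other gene had 27 higher and 22 lower with K700E and 22 and 19 with WT, and the 17 members with at least 20% shared words had 2 and 3 with K700E and 3 and 3 with WT.

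Along the chromosome, a gap of over 500 kb between successive members was taken as the end of a cluster, which gave 20 clusters. Of these, 9 held at least 5 tested members, and together they held 228 members, 184 of them tested. Their bounds are given in GRCh38 from the first to the last member. The extremes named for a cluster are the members of at least 2 CPM with the highest and the lowest ratio averaged over the constructs. The cluster at chr19:8509678-9793180, from ZNF414 to ZNF846, had 10 tested members and medians of 0.36 with K700E and 0.12 with WT. It held both ZNF414 (1.20 and, short of the threshold, 0.80), which lacks a KRAB box, and ZNF266 at its lower end. The large pericentromeric cluster at chr19:19668796-24129961, with 37 members of which 20 were tested, had medians of 0.06 and 0.17. Its named extremes were ZNF506 at the lower and ZNF724 at the upper end.

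The lowest medians were those of the cluster at chr19:11483427-12640098, from ZNF653 to ZNF791, with 25 members of which 17 were tested. They were -0.99 with K700E and -0.88 with WT, and 13 of the 17 members lay below 0 with K700E and 14 with WT. Lower levels in the cytoplasm were called for 10 members with K700E and 11 with WT, and higher levels for 1 and 0. Of all genes tested, 37.9% were lower with K700E and 40.0% with WT, and 28.1% and 27.1% were higher. Among the 9 clusters this one also had the lowest median level, 8.44 CPM, and the highest median share of words found in other genes, 7.35%. Exons of 10 of its 17 tested members overlap another gene. ZNF700 (chr19:11925068-11950773, plus strand), with 18 fingers, had the lowest mean ratio among its members of at least 2 CPM. It had 7.60, 7.57 and 5.25 CPM in the K700E cytoplasm against 18.01, 21.0 and 33.7 CPM in K700E nuclei, and 4.88, 5.72 and 5.67 CPM in the WT cytoplasm against 17.2, 13.2 and 24.4 CPM in WT nuclei. No cytoplasmic value reached a nuclear one, at log2 ratios of -1.83 ± 0.31 and -1.75 ± 0.31 (edgeR adjusted p = 9.42e-05 and 0.00015).

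Its neighbours, described here after their values were seen, were mostly on the same side. ZNF791, the most abundant of the cluster at 76.8 CPM, had -0.79 with K700E and -0.83 with WT, ZNF440 -0.99 and -0.64, ZNF44 -0.85 and -0.97, ZNF441 -1.29 and -1.07, ZNF823 -0.63 and -0.70, ZNF799 -1.16 and -1.19 and ZNF443 -1.18 and -0.93, all called in both constructs. ZNF441, ZNF440, ZNF823 and ZNF791 overlap no other gene. ZNF44 overlaps AC012618.3. ZNF443 and ZNF799 shared 37.7% and 23.98% of their words with other genes and overlap further transcripts of the locus, so their counts are less sure. ZNF627, which codes for 11 fingers near the start of the cluster and overlaps ACP5, was the only member of the cluster called higher, with 43.3, 39.4 and 34.8 CPM in the K700E cytoplasm against 29.2, 26.0 and 21.3 CPM in K700E nuclei. All 3 cytoplasmic values lay above the nuclear ones, and the ratio was 0.62 ± 0.21 with K700E (edgeR adjusted p = 0.0171) and 0.42 ± 0.21 with WT (edgeR adjusted p = 0.0878). After removal of the GC trend the medians of the cluster were -1.0005 and -0.99.

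The small cluster at chr19:34677639-34964049, with 5 members, ran from ZNF302 to ZNF792, which stood at opposite ends of the scale, and its medians were -0.62 and -0.67. In the cluster at chr19:36182060-37817300, with 26 tested members, the medians were 0.02 and -0.04, and ZNF790 and ZNF540 were its extremes. The cluster at chr19:43525497-44500524, which holds ZNF224, ZNF233, ZNF404 and ZNF428, had medians of -0.45 and -0.29, with 2 members higher and 8 lower with K700E and 3 and 6 with WT. The cluster at chr19:51571298-53580269, with ZNF649 and ZNF83, had 29 tested members and medians of 0.18 and 0.31.

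The remaining pair lies near the end of the long arm. The cluster at chr19:55476332-56671783 had a median GC content of 60.6%, and only 5 of its 14 tested members carried the KRAB pattern. Its medians were 0.59 with K700E and 0.03 with WT, and 0.68 and 0.53 after removal of the GC trend, and its named extremes were ZNF628 (1.78 and 1.47) and ZNF470 (-1.03 and -0.66). In single constructs some members went further, such as ZNF581 with K700E. The last cluster, at chr19:57191500-58481230, was the largest, with 43 members of which 42 were tested. It had medians of 0.34 and 0.24, with 17 members higher and 8 lower with K700E and 13 and 9 with WT. Its named extremes were ZNF543 and ZNF154, and ZNF671, under the limit of 2 CPM, was lower still. ZNF460, ZNF329 and ZNF814 also lie in it.

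Neighbouring members often stood on opposite sides. Of 180 pairs of tested neighbours in the same cluster, 86 had ratios of the same sign, averaged over the constructs. The median difference within a pair was 1.00 on the log2 scale, against an SD of 1.39 over all tested members, and Pearson's r between neighbours was 0.19, given as a description.

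Of the members chosen for a known role, ZNF224 and ZNF460 are described above, and ZNF146, ZNF91 and ZNF587 were called in neither construct. ZNF146, the most abundant member, had 419, 397 and 296 CPM in the K700E cytoplasm against 323, 435 and 328 CPM in K700E nuclei, which overlap. With WT it had 335, 373 and 336 CPM in the cytoplasm against 308, 191 and 305 CPM in nuclei, with WT nucleus library 2 the lowest of the 12. The ratios were 0.03 ± 0.23 and 0.38 ± 0.23 and were not called (edgeR adjusted p = 0.904 and 0.15), and both turned negative with library size alone as the scale (-0.37 with K700E and -0.13 with WT). ZNF121, named for its level and likewise without a KRAB box, had 127, 136 and 95.9 CPM in the K700E cytoplasm against 179.7, 198 and 207 CPM in K700E nuclei, which do not overlap, with ratios of -0.70 with K700E and -0.60 with WT (edgeR adjusted p = 0.00984 and 0.0235). ZNF91, which represses SVA and L1 elements, had means of 10.8 ± 1.69 CPM in the K700E cytoplasm and 13.0 ± 1.18 CPM in K700E nuclei, and 8.91 ± 1.90 and 9.76 ± 4.18 CPM with WT (SD, n = 3 each). Its ratios of -0.26 and -0.14 were not called (edgeR adjusted p = 0.485 and 0.727). ZNF587, which with its near copy ZNF417 represses HERV-K elements, had ratios of 0.19 and 0.21, not called (edgeR adjusted p = 0.606 and 0.56). It shares 18.1% of its words with ZNF417, so reads of the pair may be exchanged. Its WT ratio rested on single libraries, at 0.78 without WT nucleus library 1 (edgeR adjusted p = 0.0219) and -0.024 without WT nucleus library 2.

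ZNF274, a member that brings SETDB1 to the 3′ ends of zinc-finger genes themselves, was lower in the cytoplasm. It had 40.6, 38.1 and 48.8 CPM in the K700E cytoplasm against 51.1, 57.7 and 78.6 CPM in K700E nuclei, and 49.96, 49.87 and 47.9 CPM in the WT cytoplasm against 62.8, 85.3 and 72.1 CPM in WT nuclei. The fractions did not overlap, but the nearest values lay close together. Its ratios were -0.56 ± 0.22 with K700E and -0.58 ± 0.22 with WT (edgeR adjusted p = 0.0316 and 0.0257). These calls were fragile. Without a filter on low counts the adjusted p was 0.16 with K700E and 0.204 with WT, without K700E nucleus library 3 the K700E ratio was -0.32 (adjusted p = 0.233), and without WT nucleus library 2 the WT ratio was -0.41 (adjusted p = 0.116).

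The comparison of K700E with WT asked whether the mutant changed the level of these mRNAs in either fraction. In the nucleus 0 members were called by edgeR, by DESeq2 or by limma voom, and 0 of all 20394 genes were called by edgeR. At an unadjusted p under 0.05 there were 11 of 199 members (5.53%), against 6.81% of all genes, and the smallest adjusted p of a member was 0.659. The median log2 difference of members, K700E minus WT, was 0.00 in the nucleus. In the cytoplasm 0 members were called by the same 3 tools and 0 passed an unadjusted p of 0.05, against 4.56% of all genes unadjusted and 1 gene (0.00490%) adjusted. The median there was -0.09.

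The interaction, the log2 cytoplasm-to-nucleus ratio with K700E minus that with WT, is the comparison nearest to the export question of the study's title. It is not a measure of export, since counts per gene do not separate unspliced from mature RNA. Again 0 members and 0 of all genes were called by edgeR, and 0 members by DESeq2 or limma voom. An unadjusted p under 0.05 was reached by 3 members, against 3.30% of all genes, the smallest adjusted p was 0.980 and the median was -0.06. With 3 libraries a group, this does not show that the ratios were equal. The standard error of a single ratio difference was 0.31 for the well-counted ZNF266 (-0.27) and 0.58 for ZNF649 (0.07).

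The members with the smallest p show how single libraries entered these values. ZNF296, without a KRAB box, had 2.07, 1.55 and 1.57 CPM in K700E nuclei against 2.81, 7.70 and 2.45 CPM in WT nuclei. WT nucleus library 2 was the highest by far, though the other 2 WT values also lay above the K700E ones. The log2 difference was -1.31 ± 0.46 (edgeR adjusted p = 0.659), -0.61 after removal of the GC trend and -0.60 without that library. ZNF865 had 9.56, 6.98 and 11.05 CPM in K700E nuclei against 10.8, 32.2 and 15.4 CPM in WT nuclei, which overlap, with the same WT library on top (-1.08 ± 0.38, edgeR adjusted p = 0.659, -0.34 after removal of the GC trend and -0.51 without that library). ZNF581 (-0.90) and ZNF324B (-0.84) also had overlapping groups with WT nucleus library 2 on top, and were at -0.39 and -0.45 without it. ZNF567, a KRAB gene of 38.2% GC, ran the other way, with 53.6, 71.9 and 56.2 CPM in K700E nuclei against 47.2, 31.0 and 40.8 CPM in WT nuclei. Here WT nucleus library 2 was the lowest, and the groups did not overlap (0.61 ± 0.24, edgeR adjusted p = 0.659).

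In the cytoplasm, ZNF211 had 34.2, 34.1 and 27.2 CPM with K700E against 45.3, 40.9 and 40.8 CPM with WT. The cytoplasmic groups did not overlap, but the difference of -0.41 ± 0.20 was not called (edgeR adjusted p = 1). ZNF776, ZNF577, ZNF587B and ZNF317 were likewise lower with K700E by their values, with differences of -0.54, -0.55, -0.51 and -0.43, none of them called. That of ZNF587B was -0.28 without K700E cytoplasm library 1. For the interaction the smallest p belonged to ZNF17, with 10.3, 14.1 and 10.9 CPM in the K700E cytoplasm against 14.98, 19.3 and 17.6 CPM in K700E nuclei, and 17.1, 12.8 and 18.1 CPM in the WT cytoplasm against 11.3, 12.5 and 13.6 CPM in WT nuclei. The K700E fractions did not overlap while the WT fractions did, and the interaction was -0.92 ± 0.35 (edgeR adjusted p = 0.98). ZNF304, a KRAB protein known for silencing tumour suppressor genes, had -0.77 ± 0.36 (edgeR adjusted p = 0.98). ZNF540, also taken by its p, had a negative interaction too, while those of ZNF581 and ZNF524 were positive. None was called. Over left-out libraries they ran from -1.83 to -0.86 for ZNF540, from 0.58 to 1.40 for ZNF581 and from 0.95 to 1.82 for ZNF524.

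Base composition moved with the nuclear comparison. The 23 tested members with at least 55% GC had a median nuclear difference of -0.63, K700E minus WT, and the 176 others 0.04. The same contrast appeared in genes outside the family, with -0.48 for GC-rich ZNF genes of other chromosomes and -0.47 for GC-rich protein-coding genes. After removal of the GC trend in each library, the GC-rich members had a median of -0.10, and without WT nucleus library 2 it was -0.34. Across members, GC content and the nuclear difference had a Pearson r of -0.65 and a Spearman rho of -0.53. After the GC trend was removed, rho was -0.04. That trend is fitted on GC content over genes in each library, so values near 0 after its removal follow from the procedure. They are not a separate result, here or for the interaction. For the interaction the GC-rich members had a median of 0.55, and 0.02 after removal of the trend. That median was 0.22 without WT nucleus library 2, 0.19 without K700E cytoplasm library 3 and 0.83 without K700E nucleus library 1. The part of RNA quality or library preparation in these shifts was not tested.

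**Figure D4:**
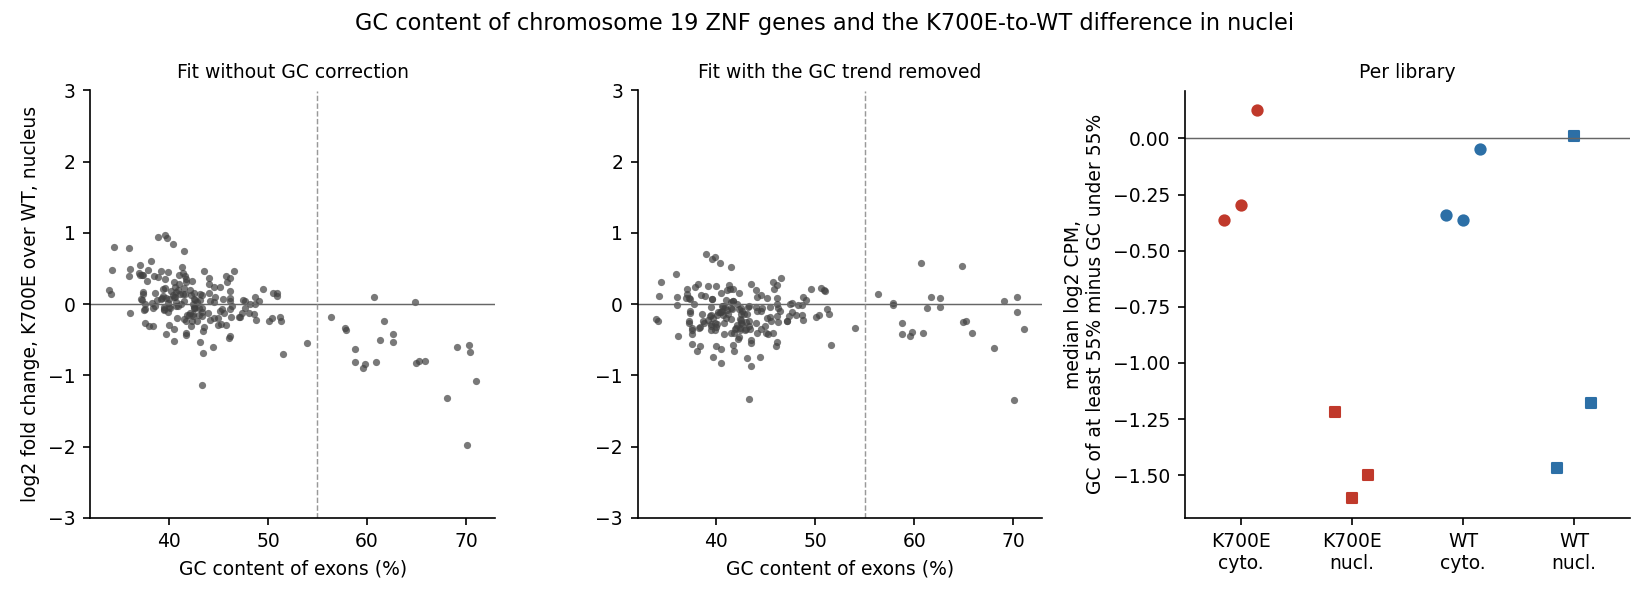
Left and middle, log2 nuclear difference K700E minus WT (vertical axis) of the 199 tested members against GC content of the longest transcript in percent (horizontal axis, labelled as exons). The left panel is as fitted and the middle one after removal of the GC trend in each library. Right, median log2 CPM of members with at least 55% GC minus that of the other members in each of the 12 libraries, by group. The slope in the left panel (Spearman's rho -0.53) is nearly flat in the middle one (-0.04), which follows from removing a trend on GC content. In the right panel WT nucleus library 2 is at 0.01 while the other 5 nuclear libraries lie between -1.60 and -1.18.

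The partners through which KRAB proteins act were described from a list of 23 genes, of which 22 were tested; EHMT2 had 0.0506 CPM on average and was not tested. In the cytoplasm 11 of the 22 were higher and 5 lower with K700E, and 9 and 6 with WT, against 28.1% higher and 37.9% lower, and 27.1% and 40.0%, of all genes. With library size alone as the scale, the counts were 6 higher and 8 lower with K700E and 6 and 7 with WT. The highest ratios were those of SUMO2 and CBX1. SUMO2, the modifier that TRIM28 attaches to itself, had log2 ratios of 3.63 with K700E and 3.80 with WT, and the HP1 proteins CBX1, CBX3 and CBX5 had 2.43 and 2.76, 1.18 and 1.31, and 1.14 and 1.62. CHAF1B of the histone chaperone CAF-1 (1.95 and 1.51) and UHRF1 (1.55 and 1.13), which reads methylated DNA after replication, were higher too.

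On the nuclear side stood MORC2 (-1.67 with K700E and -1.62 with WT) and MPHOSPH8 (-0.68 and -0.67), which belong to or act with the HUSH silencing complex. The remodellers SMARCAD1 (-1.14 and -0.87) and CHD4 (-0.75 and -1.37) and SETDB1 itself stood there too. Neither group was nuclear as a whole. TASOR (-0.14 and 0.06) and PPHLN1 (-0.14 and 0.09), also of HUSH, were called in neither construct. CHD3 had 0.62 with K700E, which was called, and 0.39 with WT, which was not. SETDB1 had 57.2, 61.2 and 68.2 CPM in the K700E cytoplasm against 100.4, 76.3 and 118.6 CPM in K700E nuclei, and 60.5, 56.3 and 63.7 CPM in the WT cytoplasm against 105.1, 71.2 and 86.4 CPM in WT nuclei. The fractions did not overlap (-0.66 ± 0.22 and -0.54 ± 0.22, edgeR adjusted p = 0.0125 and 0.0349), but the calls were not firm. Without a filter on low counts the adjusted p was 0.0673 and 0.219, without K700E nucleus library 3 the K700E ratio was -0.47 (adjusted p = 0.0948), and without WT nucleus library 1 the WT ratio was -0.33 (adjusted p = 0.21). TRIM28 had 325, 368 and 624 CPM in the K700E cytoplasm against 315, 207 and 209 CPM in K700E nuclei, and 519, 441 and 668 CPM in the WT cytoplasm against 334, 636 and 298 CPM in WT nuclei. WT nucleus library 2 lay among the cytoplasmic values, and TRIM28 was called higher with K700E (0.85 ± 0.31, edgeR adjusted p = 0.0245) but not with WT (0.36 ± 0.31, edgeR adjusted p = 0.311). Without WT nucleus library 2 the WT ratio was 0.83 (edgeR adjusted p = 0.0209), and after removal of the GC trend both were called, at 0.70 with K700E and 0.80 with WT. Without K700E cytoplasm library 3 the K700E ratio was 0.55 (edgeR adjusted p = 0.141), and with library size alone as the scale the ratios were 0.43 and -0.17, neither called. Between K700E and WT, 0 of the 22 were called in either fraction or for the interaction by edgeR. In the nucleus 3 (13.6%) reached an unadjusted p under 0.05 (CHD4, CBX5 and TRIM28), against 6.81% of all genes. WT nucleus library 2 was the highest of the WT nuclei for CHD4 and TRIM28 and the lowest for CBX5. These 3 nuclear differences were not tested without that library.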

How the data were processed

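Per the labels' protocols, RNA was taken with Trizol and libraries were made from 1 µg with the NEBNext Ultra kit. Per the submitters' processing notes, HISAT2 and DESeq were used; versions, genome build, annotation and counting program: not given in the sources used here. The authors deposited raw read counts per Ensembl gene ID, 1 file per library. IDs were matched without version to GENCODE 29 (GRCh38); 58440 of 67049 matched, with 99.7% of counts. Coordinates, GC content, fingers (translated longest complete coding sequence), KRAB patterns and 50-base word sharing came from GENCODE 29; RefSeq proteins, first planned for fingers and KRAB, were not used here. Counts were fitted with edgeR 4.0.16 (TMM, filterByExpr, minimum count 10, 1 term per group, all 12 libraries, quasi-likelihood test), with Benjamini-Hochberg adjustment over 20394 genes and calls at an adjusted p under 0.05. SE is the absolute log2 ratio over the square root of F. CPM are TMM-scaled. The fit was tested on simulated data. DESeq2 1.42.0, limma 3.58.1 (voom), other scalings, filters, replicate blocks, removal of a GC trend per library and leaving out each library were tried. Named genes were the 6 called members of at least 2 CPM with the largest ratio in each direction whose groups do not overlap, the 5 smallest p per K700E comparison, the 6 highest levels per kb, cluster extremes and fixed genes; others are said to have been picked later. The members and lists were chosen with earlier results of these data known.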

Additional observations from a re-analysis of the deposited data

How the results depend on the processing

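The K700E against WT comparisons and their interaction kept 0 calls among members under every alternative run. For cytoplasm against nucleus, counts and medians of members stayed within 1.5 times or 1 SD under DESeq2, limma voom, DESeq2 size factors, removal of the GC trend, replicate blocks and fits to the compared libraries alone. Scaling by library size alone gave 27 members higher and a median of -0.35 with K700E, and 25 higher, 73 lower and a median of -0.43 with WT; summed levels were 3498 CPM in K700E cytoplasm, 5029 in K700E nuclei, 3532 in WT cytoplasm and 5050 in WT nuclei. Upper quartile factors gave 28 higher and a median of -0.30 with K700E, 30 and -0.30 with WT, and levels of 3591, 5001, 3671 and 4762 CPM in the same order. DESeq2 size factors gave levels of 4526 CPM in K700E nuclei and 4119 CPM in WT cytoplasm. Without a filter beyond 1 count, 29 members were lower with WT. With 1 CPM required in all 12 libraries, which removes the low members, 30 were higher with K700E (median -0.11) and 33 with WT. Of the KRAB partners, settings chosen after seeing the data gave 6 higher and 8 lower with K700E by library size alone, 6 higher by upper quartile factors, 7 higher with the 1 CPM filter, and 3 lower with each construct without a filter. With a gap of 250 kb the highest cluster medians were 0.74 with K700E and 0.72 with WT. The cause was not tested.

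Leaving out each library in turn gave 42 to 63 members higher and 43 to 54 lower with K700E, 42 to 62 higher and 32 to 53 lower with WT, and 2 to 5 KRAB partners lower with K700E (2 without K700E nucleus library 3). Only ratios picked by size or smallest p, and those of the fixed members described above, were followed over the alternative settings. Among them, 0 called ratios reversed and 14 lost their call, all for ZNF274. Its ratios ran from -0.63 to -0.32 with K700E and from -0.62 to -0.41 with WT over left-out libraries. Members named only by level, as cluster extremes or later, such as ZNF121, ZNF627 and ZNF700, were not followed. Nor was a ratio in a construct where it was not picked, such as that of ZNF358 with WT. Uncalled ratios near 0 changed sign in 19 settings. ZNF146 was -0.075 with K700E by DESeq2 and by its size factors, -0.37 by library size, -0.33 by upper quartile, -0.29 with the 1 CPM filter, -0.021 with only the compared libraries and -0.053 to 0.21 over left-out libraries; with WT it was -0.13 by library size. ZNF587 was -0.24, -0.18 and -0.14 with K700E and -0.28, -0.14 and -0.093 with WT by library size, upper quartile and the 1 CPM filter. Without WT nucleus library 2 its WT ratio was -0.024, and without WT nucleus library 1 it was 0.78 (edgeR adjusted p = 0.0219). ZNF91 was 0.022 with K700E after removal of the GC trend, and -0.39 to 0.23 with WT over left-out libraries. Of the KRAB partners, TRIM28 with WT was -0.17 by library size and -0.024 by upper quartile.

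Deviations of same-numbered libraries from their group means had a correlation over 0.1 in 5 of 18 pairs (range -0.249 to 0.427). Between K700E and WT of the same fraction all were positive. For numbers 1, 2 and 3 they were 0.427, 0.063 and 0.199 in nuclei and 0.027, 0.157 and 0.343 in the cytoplasm. Differently numbered libraries were not compared in this way, and the numbers were not taken as pairs. With the replicate block by number, 51 members were higher and 50 lower with K700E and 52 and 47 with WT; with a block by construct and number, 47 and 46, and 49 and 42, and ZNF274 with K700E lost its call (-0.54, adjusted p = 0.056), as did SETDB1 with WT (-0.52, adjusted p = 0.0615). Depth limits the low members most: 48 of 247 had too few counts to test.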
